A study of Mus musculus with 12 samples.

Results

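Serine synthesis and folate-bound one-carbon metabolism were followed through 10 genes, chosen by name: Phgdh, Psat1, Psph, Shmt1, Shmt2, Mthfd1, Mthfd1l, Mthfd2, Aldh1l2 and Tyms. All 10 were found among the 46078 genes of the count table, and all 10 passed the filter on low counts that left 18252 genes for testing. RNA came from 12 orthotopic mammary tumours of 4T1, a metastatic mammary carcinoma line of the BALB/c mouse that carries firefly luciferase here. The host mice were BALB/c, which have an intact immune system, and each received 300000 cells in mammary fat pad number 4. From day 14 the mice were given, for 2 weeks, vehicle, MBQ-167 at 100 mg/kg on 5 occasions a week, paclitaxel at 5 mg/kg once a week, or both drugs at these doses (the combination), and tumours were taken on day 28. MBQ-167 is an inhibitor of Rac and Cdc42, GTPases that steer the actin cytoskeleton, and paclitaxel is a stabiliser of microtubules. Each group holds 3 libraries. Every group shares the cell line, the site and the day of collection. Ages are not stated, nor whether each library is a separate mouse, so p-values measure the spread between libraries. The cells were injected on 2 occasions, and the occasion of each library is not stated, so an effect of occasion and one of treatment cannot be told apart.

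Cells make serine from a glycolytic intermediate in a short pathway whose enzymes are phosphoglycerate dehydrogenase (Phgdh), phosphoserine aminotransferase (Psat1) and phosphoserine phosphatase (Psph). Serine hydroxymethyltransferase then splits serine into glycine and a one-carbon unit carried by tetrahydrofolate, in the cytosol (Shmt1) or in mitochondria (Shmt2). In mitochondria the unit is oxidised by Mthfd2, released as formate by Mthfd1l, or oxidised fully by Aldh1l2. Formate leaves for the cytosol, where Mthfd1 reloads it onto folate for purine synthesis and for thymidylate synthase (Tyms). In many tumours the mitochondrial arm supplies most of these units, and the stress-induced transcription factor ATF4 is a known activator of serine synthesis and of mitochondrial folate genes.

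Paclitaxel tumours held less RNA of 2 of the 10 genes than vehicle tumours: Shmt2 fell to 0.661-fold and Mthfd1l to 0.711-fold. In that comparison 5.66% of all tested genes were called, 2.49% lower and 3.17% higher. Both genes encode mitochondrial enzymes, but the other mitochondrial members, Mthfd2 and Aldh1l2, were not called (adjusted p = 0.415 and 0.782 with paclitaxel). Nor did the serine synthesis genes, Shmt1, Mthfd1 or Tyms pass in any comparison. With MBQ-167 alone 0 of the 10 passed, where 0.0931% of all genes did, and with the combination 0 passed, where 1.84% of all genes did. At such shares a count of 0 among 10 genes says nothing about these genes. Because the bulk tumour was sequenced, fewer cells of a type and less RNA per cell cannot be told apart.

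Both genes lie on chromosome 10 of GRCm38, Shmt2 at chr10:127517123-127522444 on the minus strand and Mthfd1l at chr10:3973118-4167081 on the plus strand. Since they were lower together, the 250 bases before their annotated starts are shown, beside those of Mthfd1, whose cytosolic enzyme runs the reaction of Mthfd1l in the other compartment and which was not called. The sequences are RefSeq's on GRCm38.p6, read 5′ to 3′ on the strand of the gene, from chr10:127522445-127522694 (Shmt2, minus), chr10:3972825-3973074 (Mthfd1l, plus) and chr12:76254982-76255231 (Mthfd1, plus). Capitals mark GC boxes, GGGCGG on either strand.
Shmt2: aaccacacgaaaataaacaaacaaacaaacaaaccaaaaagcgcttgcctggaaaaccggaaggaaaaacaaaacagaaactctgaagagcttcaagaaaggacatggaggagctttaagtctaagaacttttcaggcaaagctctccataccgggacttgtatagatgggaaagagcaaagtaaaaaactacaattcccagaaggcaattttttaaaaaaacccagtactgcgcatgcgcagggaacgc
Mthfd1l: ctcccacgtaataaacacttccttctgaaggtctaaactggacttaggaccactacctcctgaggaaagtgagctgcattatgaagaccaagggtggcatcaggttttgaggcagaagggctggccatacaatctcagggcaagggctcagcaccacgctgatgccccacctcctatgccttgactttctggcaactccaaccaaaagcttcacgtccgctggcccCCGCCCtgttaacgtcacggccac
Mthfd1: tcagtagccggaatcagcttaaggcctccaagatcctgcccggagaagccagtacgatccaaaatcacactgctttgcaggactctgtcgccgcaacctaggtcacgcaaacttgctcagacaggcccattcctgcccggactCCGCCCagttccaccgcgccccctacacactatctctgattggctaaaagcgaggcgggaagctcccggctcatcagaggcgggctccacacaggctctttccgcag
The Shmt2 window, with a GC content of 40.8%, held no GC box, and the Mthfd1l window, at 54.4%, held 1, which ends 19 bases before the start. Windows were found for 9 of the 10 genes, 10 windows in all. The motif TGATGNAA, bound by ATF4 with C/EBP partners, was searched on both strands and found in 0 of the 10 windows and in 3.45% of 32851 mouse windows of the same length. The E2F motif TTTCCCGC was in 0 of the 10 and in 0.895% of all windows. The E-box CACGTG, bound by MYC, was in the Tyms window alone, against 6.02% of all. GC boxes were in 6 of the 10 windows (Psat1, Psph, Shmt1, Mthfd1, Mthfd1l and Tyms) and in 32.7% of all. Neither motif class overlapped the other, and adjacent GC boxes of Shmt1 share 1 base. These counts describe letters in the windows only.

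**Figure D1:**
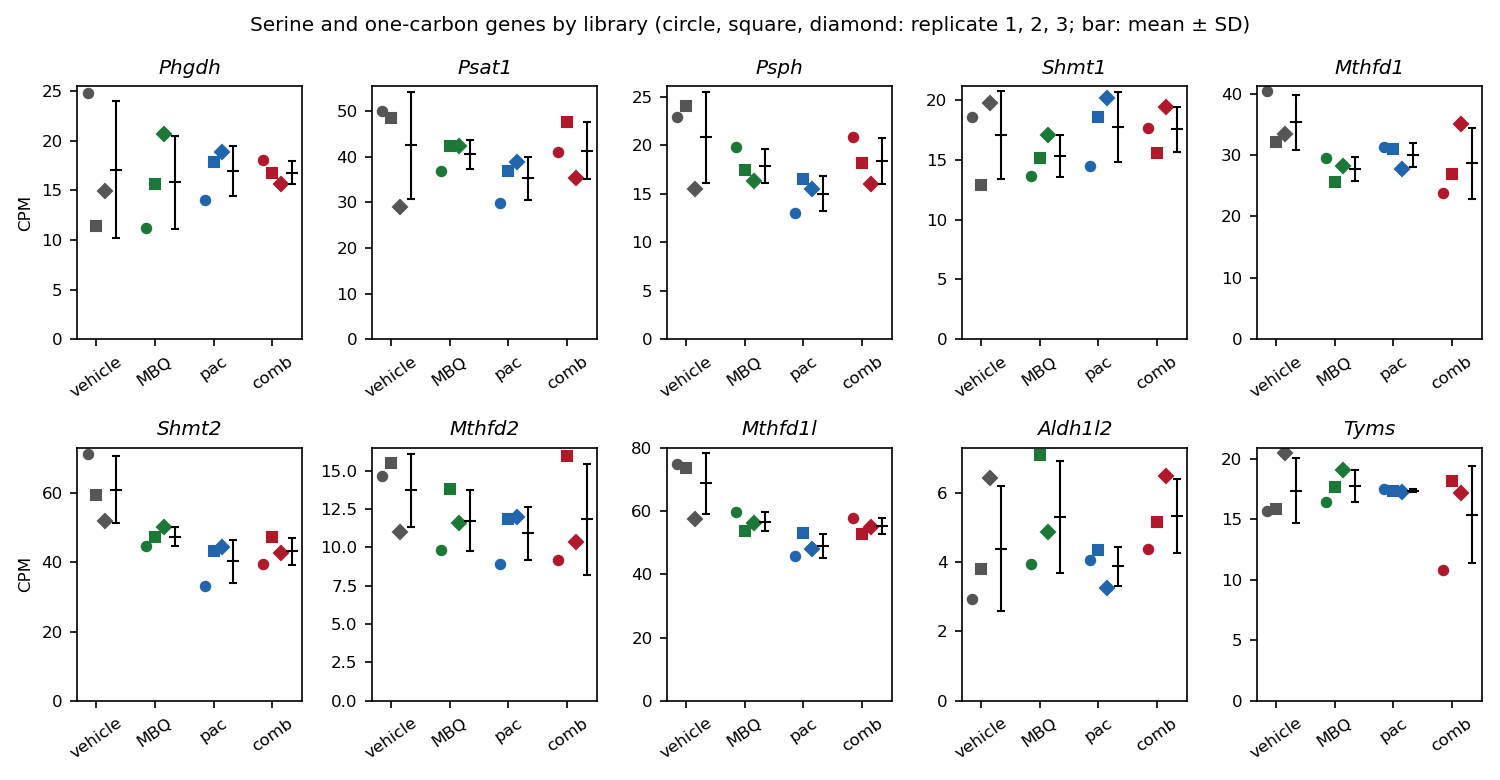
CPM, counts scaled to a fixed library size, of each gene in every library, from 0 on each vertical axis; circles, squares and diamonds are replicates 1, 2 and 3, and bars give mean ± SD of 3 libraries per group. MBQ, pac and comb stand for MBQ-167, paclitaxel and combination. All 9 drug libraries lie below the lowest vehicle library for Shmt2, at 33.1 to 50.3 CPM against 52.0 to 71.3 CPM.

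Total counts ran from 11540557 to 17001562 per library. CPM values are counts scaled to the library size corrected by TMM, a scaling set by the bulk of genes, whose factors were 0.826 to 0.904 in vehicle libraries, 0.940 to 1.05 with MBQ-167, 1.03 to 1.22 with paclitaxel and 0.933 to 1.18 with the combination. They went with the share of counts on 3 features of chromosome 17, ribosomal or neighbouring it, at 31.6% to 37.5% in the vehicle group, 30.1% to 36.8% with MBQ-167, 17.1% to 32.1% with paclitaxel and 19.9% to 37.4% with the combination. Libraries also differed in the correlation, across genes, of their expression with transcript GC content, which was 0.11 to 0.29 in vehicle libraries, -0.00056 to 0.13 with MBQ-167, -0.28 to -0.11 with paclitaxel and -0.19 to -0.029 with the combination. Epithelial markers stood at unequal levels: Krt8 had 277 to 694 CPM, Krt18 had 383 to 1034 CPM and Epcam had 32.1 to 346 CPM over the 12 libraries. Others of the same list were near the floor, with Krt5 at 0 to 7.44 CPM and Trp63 at 0.405 to 4.06 CPM. No reference tissue stands beside these levels, so they are no test of the carcinoma label.

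Shmt2 had the highest level per length of the 10 genes, 15.4 ± 3.17 CPM per kb of exon (SD, n = 12). Mthfd1l followed with 12.9 ± 2.00 CPM per kb and Psat1 with 9.38 ± 1.60. On this scale Shmt2 was above Mthfd1l in 11 of 12 libraries and Mthfd1l above Psat1 in all 12. Mthfd1 (6.85 ± 1.02 CPM per kb) and Phgdh (6.70 ± 1.53 CPM per kb) could not be ordered, with Mthfd1 above Phgdh in 5 of 12 libraries. The same held for Shmt1 (4.36 ± 0.642) and Psph (4.16 ± 0.760 CPM per kb), with Shmt1 above Psph in 6 of 12. The place of Phgdh depends on whether near copies of it are counted: with their counts added it had 12.4 ± 3.12 CPM per kb of its own exons, above Mthfd1 in all 12 libraries, above Psat1 in 10 and above Mthfd1l in 4. Mthfd2 had 3.45 ± 0.692, Tyms 2.79 ± 0.385 and Aldh1l2 0.630 ± 0.176 CPM per kb, and each was below the gene before it in at least 10 of 12 libraries. Shmt2 stood at the 87.0 percentile of all tested genes per length and Aldh1l2 at the 15.5 percentile. Reads behind these levels ranged from 860 for Aldh1l2 to 10187 for Mthfd1l, summed over the 12 libraries.

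**Figure D2:**
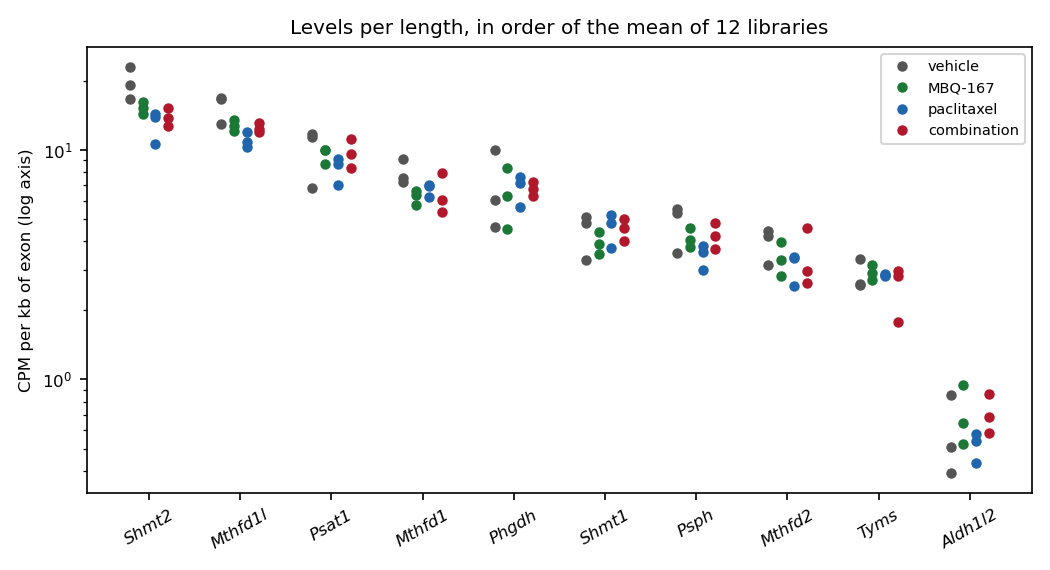
Level per length of the 10 genes, in CPM per kb of exon on a log axis, 1 point per library, coloured by group, with genes in order of their mean over 12 libraries. Shmt2 and Mthfd1l lead at 15.4 and 12.9 CPM per kb, and Aldh1l2 is lowest at 0.630. Phgdh, plotted at 6.70, has 12.4 CPM per kb with the counts of its near copies added.

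In the synthesis of serine, Psat1, whose enzyme transfers the amino group, had 49.96, 48.5 and 28.9 CPM in the vehicle libraries and 36.9, 42.4 and 42.4 CPM with MBQ-167. It had 29.9, 36.9 and 38.9 CPM with paclitaxel and 41.0, 47.6 and 35.4 CPM with the combination. Vehicle library 3 was the lowest of all 12 while the other two were the highest, so the vehicle group spanned every drug group. The change with paclitaxel was -0.27 ± 0.19 on the log2 scale (fitted value ± standard error, SE, here and below), with an adjusted p of 0.428.

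Psph, which releases serine from phosphoserine in the last step, had 23.0, 24.0 and 15.5 CPM in vehicle and 19.8, 17.5 and 16.3 CPM in MBQ-167 libraries. It had 13.0, 16.5 and 15.5 CPM in paclitaxel and 20.8, 18.2 and 16.1 CPM in combination libraries. As for Psat1, vehicle library 3 was low, and each drug group overlapped the vehicle range. The paclitaxel difference was -0.47 ± 0.18 on the log2 scale and did not pass (adjusted p = 0.134). Without vehicle library 3 it was -0.65 and passed, with an adjusted p of 0.0337. That library was the lowest of the vehicle group, so leaving it out had to enlarge the fall. It was the only one of 23 alternative fits, 12 of them with a library left out, that called Psph. Without vehicle library 2 the difference was -0.36 (adjusted p = 0.306). Exons of Psph share 452 bases with Cct6a on the other strand, which had 34317 counts against the 3179 of Psph. Whether counting used the strand is not given in the sources used here, so part of these counts may belong to Cct6a.

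Phgdh, the first enzyme of the pathway, had 24.8, 11.5 and 14.99 CPM in vehicle and 11.2, 15.6 and 20.6 CPM in MBQ-167 libraries. It had 14.1, 17.9 and 18.9 CPM with paclitaxel and 18.0, 16.7 and 15.7 CPM with the combination. The highest library, vehicle 1, and one of the lowest, vehicle 2, belong to the same group. The differences from vehicle were -0.11 ± 0.26 with MBQ-167, -0.014 ± 0.26 with paclitaxel and -0.026 ± 0.26 with the combination. Their 95% intervals reached from -0.67 to 0.45, from -0.57 to 0.54 and from -0.58 to 0.53, which is as far as these libraries bound the change.

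Part of the Phgdh signal may be listed under other genes. The annotation holds 21 features, 20 of them processed pseudogenes, that match Phgdh over at least 400 bases at 90% identity or more; 10 are in the table and 8 have counts. Together they had 2486 counts, 83.0% as many as the 2994 of Phgdh itself. The most counted was Gm7901 on chromosome 8, with 1966 counts, which differs from the Phgdh transcript at 20 of 1597 aligned positions. The coding stretch with the most differences, 6 in 90 bases (coding bases 1357 to 1446 of Phgdh), is shown to illustrate how alike they are, from GENCODE vM21 transcripts, with differing bases in capitals.
Phgdh: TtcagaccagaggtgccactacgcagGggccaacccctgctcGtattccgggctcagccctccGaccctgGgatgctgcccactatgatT
Gm7901: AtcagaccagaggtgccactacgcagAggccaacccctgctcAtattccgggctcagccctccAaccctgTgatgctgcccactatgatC
Elsewhere the longest run without a difference was 312 bases. How reads with several equal matches were counted is not given in the sources used here. With the copies added, Phgdh was at 33.3 ± 14.1 CPM in vehicle libraries, 29.7 ± 7.58 with MBQ-167, 31.6 ± 6.62 with paclitaxel and 28.3 ± 2.89 CPM with the combination (SD, n = 3 each). The summed differences from vehicle were -0.16 ± 0.26, -0.077 ± 0.26 and -0.24 ± 0.26 on the log2 scale, with adjusted p-values of 0.846, 0.895 and 0.685.

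**Figure D3:**
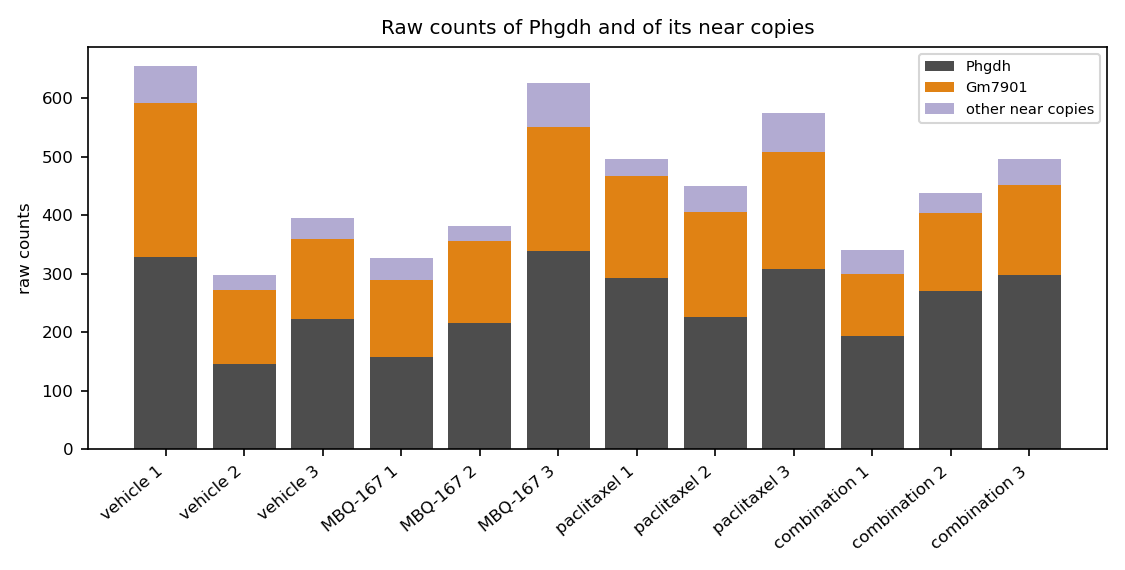
Raw counts of Phgdh, of its near copy Gm7901 and of the other near copies summed, stacked from 0, in each of the 12 libraries. Gm7901 held 106 to 264 counts in every library beside 145 to 339 for Phgdh.

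Shmt2, which loads the one-carbon unit onto folate inside mitochondria, had 71.3, 59.5 and 52.0 CPM in the vehicle libraries and 44.8, 47.3 and 50.3 CPM in the MBQ-167 libraries. It had 33.1, 43.4 and 44.4 CPM in the paclitaxel libraries and 39.5, 47.3 and 42.7 CPM in the combination libraries. Every one of the 9 drug libraries was below all 3 vehicle libraries. Shmt2 was the one gene of the 10 with that pattern, which 3.95% of all tested genes showed. The fall with paclitaxel was -0.60 ± 0.14 on the log2 scale, with a 95% interval from -0.91 to -0.29 and an adjusted p of 0.0287 by edgeR's quasi-likelihood test. With MBQ-167 the difference was -0.36 ± 0.14 (adjusted p = 0.311), and with the combination it was -0.50 ± 0.14 (adjusted p = 0.0893). The 3 comparisons share the vehicle libraries.

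Mthfd1l, the mitochondrial enzyme that releases formate, had 74.8, 73.7 and 57.5 CPM in vehicle and 59.7, 53.7 and 56.2 CPM in MBQ-167 libraries. It had 45.6, 52.9 and 47.9 CPM in paclitaxel and 57.8, 52.8 and 54.9 CPM in combination libraries. The paclitaxel libraries lay below all vehicle libraries, as they did for 12.1% of all tested genes. In the other groups 1 library each lay just above vehicle library 3. The fall with paclitaxel was -0.49 ± 0.12 on the log2 scale, with an interval from -0.75 to -0.24 and an adjusted p of 0.0290. The differences with MBQ-167 and with the combination were -0.28 ± 0.12 and -0.32 ± 0.12, with adjusted p-values of 0.339 and 0.175.

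Both calls were near the threshold. A per-library correction for GC content left Shmt2 at -0.46 (adjusted p = 0.115) and Mthfd1l at -0.44 (adjusted p = 0.0764), and the transcripts stand at the 90.5 and 59.0 percentiles of GC content. Without vehicle library 1 the values were -0.48 and -0.43 (adjusted p = 0.115 and 0.108), without paclitaxel library 1 they were -0.48 and -0.45 (0.110 for both), and without paclitaxel library 2 they were -0.65 and -0.55 (0.0667 and 0.0608). Mthfd1l was also not called without vehicle library 2 (-0.44, adjusted p = 0.0738) or paclitaxel library 3 (-0.48, adjusted p = 0.0728). Scaling by total counts alone moved the median of all genes to 0.32 and gave Shmt2 -0.28 and Mthfd1l -0.17 (adjusted p = 0.235 and 0.441). Relative to that median the differences were -0.60 and -0.49. A change of scaling shifts all genes by nearly the same amount, so these distances could hardly differ from those with TMM. They are therefore no check of the 2 calls. With the 3 ribosomal features left out of the totals, Shmt2 was at -0.46 and Mthfd1l at -0.35 (adjusted p = 0.0645 and 0.0980), and the median of all genes was 0.14. The part of GC content and of the ribosomal share in the 2 calls was not tested beyond these fits.

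Cell markers moved in the same comparison. Of 16 tested neutrophil markers 12 were called lower with paclitaxel, 11 with the combination and 0 with MBQ-167. Of all tested genes 2.49%, 0.811% and 0.0767% were called lower in these comparisons. With MBQ-167 16 of 16 were still under 0, with a median of -1.77, against -2.69 with paclitaxel and -2.53 with the combination. Their summed level was 495 to 1934 CPM in vehicle and 315 to 419.8 CPM in paclitaxel libraries. It was 429.9 to 500.2 CPM with MBQ-167 and 333 to 386 CPM with the combination. Mmp9 and Lcn2 had the highest medians in that sum, at 130 and 110 CPM. The defining marker Ly6g was at 0 in 1 library. Of 6 tested erythroid markers 3 were called lower with paclitaxel, 3 with the combination and 0 with MBQ-167. Their summed level was 258 to 265 CPM in vehicle and 14.5 to 107 CPM in paclitaxel libraries. It was 44.55 to 107.5 CPM with MBQ-167 and 32.6 to 67.5 CPM with the combination. Vehicle library 3 held 1934 CPM of neutrophil markers and was the lowest vehicle library for both Shmt2 (52.0 CPM) and Mthfd1l (57.5 CPM). Leaving it out therefore had to enlarge both falls, to -0.70 and -0.61 (adjusted p = 0.0160 and 0.00992). Vehicle libraries 1 and 2, at 647.5 and 495.2 CPM of neutrophil markers, were still above every paclitaxel library. This fit thus cannot separate the neutrophil share from the treatment. The parts of neutrophil and of erythroid RNA in the result were not tested. Of the carcinoma markers, 11 of 13 were under 0 with paclitaxel (median -0.37), 10 of 13 with MBQ-167 (-0.68) and 10 of 13 with the combination (-0.31), and 1 was called, Krt8 with paclitaxel. Their summed level was 2235, 1023 and 3213 CPM in vehicle libraries 1 to 3, with library 2 far below the other two, and 1260 to 1404 CPM in paclitaxel libraries, 1116 to 1687 with MBQ-167 and 1038 to 1860 CPM with the combination. Without vehicle library 2 the paclitaxel difference of Shmt2 was -0.62 (adjusted p = 0.0480) and that of Mthfd1l -0.44 (0.0738). The part of the carcinoma cell share in the result was not tested.

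**Figure D4:**
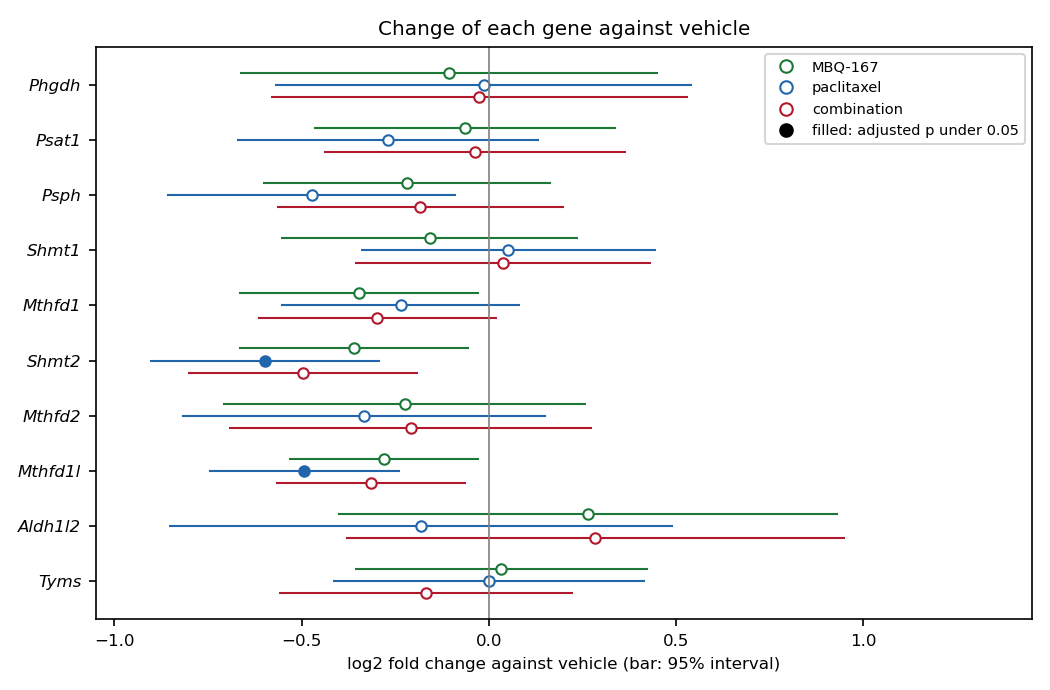
Log2 fold change of each gene against vehicle, with its 95% interval, for MBQ-167, paclitaxel and the combination; filled points passed at an adjusted p under 0.05. The filled points are Shmt2 at -0.60 and Mthfd1l at -0.49, both with paclitaxel, and the intervals of Phgdh, Psat1, Shmt1, Mthfd2, Aldh1l2 and Tyms hold 0 in all 3 comparisons.

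Mthfd2, the mitochondrial dehydrogenase that acts between Shmt2 and Mthfd1l, had 14.7, 15.5 and 11.01 CPM in vehicle and 9.81, 13.8 and 11.6 CPM in MBQ-167 libraries. It had 8.92, 11.8 and 11.96 CPM in paclitaxel and 9.20, 15.9 and 10.3 CPM in combination libraries. The groups overlapped, and the highest library of all belonged to the combination. The fitted paclitaxel difference was -0.33 ± 0.23, with an interval from -0.82 to 0.15 that includes the size of the Shmt2 fall.

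Aldh1l2, which oxidises the mitochondrial unit to carbon dioxide, had 2.95 to 7.08 CPM over the 12 libraries and the widest spread within groups, an SD of 0.40 on the log2 scale. Its group means were 4.39 ± 1.81 CPM in vehicle, 5.29 ± 1.61 with MBQ-167, 3.88 ± 0.566 with paclitaxel and 5.33 ± 1.07 CPM with the combination (SD, n = 3 each). No difference passed, and the interval with paclitaxel ran from -0.86 to 0.49. Its exons share 1056 bases with D10Wsu102e on the other strand, which had 6334 counts against the 860 of Aldh1l2, so here too part of the level may belong to the overlapping gene.

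Among the cytosolic enzymes, Shmt1 had 18.6, 12.9 and 19.8 CPM in vehicle and 14.5, 18.6 and 20.2 CPM in paclitaxel libraries. The ranges overlapped almost wholly, and the difference was 0.051 ± 0.18 on the log2 scale. Exons of Shmt1 share 184 bases with Smcr8 on the other strand, which had 12592 counts against the 3059 of Shmt1. Part of the Shmt1 level, and so of its ratio to Shmt2, may thus belong to Smcr8. The ratio of Shmt2 to Shmt1, both in CPM of the same library, was 3.83, 4.62 and 2.63 in vehicle libraries and 2.28, 2.34 and 2.20 in paclitaxel libraries, with no overlap. It was 2.94 to 3.27 with MBQ-167 and 2.20 to 3.03 with the combination, which both overlapped vehicle. An exact two-sided permutation test of the log2 ratio gave p = 0.1 for paclitaxel against vehicle, the smallest that 3 libraries against 3 can give, and 0.8 after adjustment over 12 such comparisons of ratios.

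Mthfd1, the cytosolic enzyme that takes up formate, had 40.4, 32.1 and 33.5 CPM in vehicle, 29.5, 25.6 and 28.2 CPM in MBQ-167 and 31.3, 31.0 and 27.7 CPM in paclitaxel libraries. Both drugs alone thus lay below the vehicle range, which 8.79% of tested genes did with MBQ-167 and 12.1% with paclitaxel, while the combination, at 23.9, 27.0 and 35.1 CPM, overlapped it. The differences were -0.35 ± 0.15 with MBQ-167 (adjusted p = 0.350), -0.24 ± 0.15 with paclitaxel (0.375) and -0.30 ± 0.15 with the combination (0.307). The ratio of Mthfd1l to Mthfd1 in CPM overlapped between vehicle, at 1.72 to 2.30, and paclitaxel, at 1.46 to 1.73.

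Tyms, which makes thymidylate for DNA synthesis, was at 15.7, 15.9 and 20.5 CPM in vehicle and 17.5, 17.4 and 17.2 CPM in paclitaxel libraries. The 3 paclitaxel libraries lay inside the vehicle range, and the interval of the difference ran from -0.42 to 0.42. Combination library 1 had the lowest value of the 12, 10.8 CPM, and the other two combination libraries had 18.2 and 17.2 CPM.

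With MBQ-167, with paclitaxel and with the combination, 8 of the 10 fitted differences from vehicle were under 0, against 49.9% to 50.2% of all genes. These 3 comparisons share the vehicle libraries, so their counts are not independent. Vehicle library 1 was the highest of all 12 for Shmt2, Mthfd1l, Psat1, Mthfd1 and Phgdh. The median of the 10 was -0.19 with MBQ-167, -0.25 with paclitaxel and -0.18 with the combination, and the medians of all genes were within 0.002 of 0. Under total-count scaling 5, 4 and 2 of the 10 were under 0 in these comparisons, while 8, 9 and 8 were under the median of all genes, which that scaling moved to 0.19, 0.32 and 0.28. A change of scaling shifts all genes nearly alike, so the counts under that median could hardly change and are no check. Counts of genes under 0 therefore hold only relative to the bulk of genes.

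The drugs were also compared as factors. An F-test for any difference among the 4 groups called 251 genes, 1.38%, and none of the 10; Shmt2 had an adjusted p of 0.101 and Mthfd1l of 0.130. Averaged over tumours with and without MBQ-167, the paclitaxel effect was -0.37 ± 0.10 for Shmt2 (adjusted p = 0.0653) and -0.26 ± 0.084 for Mthfd1l (0.0973), where 3.19% of genes were called. The averaged MBQ-167 effect called 0 genes by edgeR, with 970 at an unadjusted p under 0.05, 5.31%, none of them among the 10, and 7 genes by DESeq2. The same count of 0 was found for the combination against MBQ-167 (940 genes unadjusted, 5.15%, and 1 by DESeq2) and against paclitaxel (430 genes unadjusted, 2.36%, and 5 by DESeq2). Between the combination and paclitaxel, Shmt2 differed by 0.10 ± 0.14 and Mthfd1l by 0.18 ± 0.12.

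The interaction, which is 0 where the effects of the drugs add on the log2 scale, called 0.0603% of genes and none of the 10. It was 0.46 ± 0.20 for Shmt2 (adjusted p = 0.481), 0.46 ± 0.17 for Mthfd1l (0.385) and 0.51 ± 0.25 for Psph (0.544). The fitted values of 9 of the 10 were above 0, with a median of 0.29, against 50% of all genes. Under total-count scaling 7 of 10 were above 0, while 1 was under the median of all genes, which that scaling moved to -0.23. With TMM 1 was under the median of all genes too, a count that a change of scaling can hardly alter. The interaction rests on the same vehicle libraries as the comparisons with vehicle.

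Over the 12 libraries the genes differed in how their levels went together, given here as Pearson's r of log2(CPM + 0.5) between genes that share library, scaling and depth. Psph and Mthfd1l had r = 0.88 (0.89 within groups), Shmt2 and Mthfd1l 0.84 (0.51 within groups), and Psat1 and Psph 0.77 (0.76 within groups). Psat1 and Mthfd2 had 0.76 and Shmt2 and Mthfd2 had 0.73, but Mthfd1l and Mthfd2 had 0.47 (0.20 within groups) and Psph and Mthfd2 0.49. Shmt2 and Mthfd1 had 0.51, and 0.19 within groups. Phgdh, though in one pathway with Psat1 and Psph, had r = 0.31 and -0.014 with them and 0.69 with Shmt1. Phgdh and Shmt2 had 0.29, and 0.64 within groups. The Shmt2 and Mthfd1l correlation thus rested in part on the difference between groups.

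A list of 29 tested genes, ATF4 and genes it is known to activate but none of the 10, was set beside them. Its mean log2 level had r = 0.90 with Mthfd1l, 0.85 with Shmt2, 0.84 with Psph, 0.70 with Mthfd2 and 0.65 with Psat1, but -0.058 with Phgdh and -0.33 with Shmt1. Macrophage markers went with some of the same genes, with r = 0.64 for Psat1, 0.64 for Psph, 0.45 for Mthfd1l, 0.41 for Mthfd2 and 0.27 for Shmt2. Neutrophil markers had r = 0.49 with Shmt2 and 0.47 with Mthfd1l, but 0.14 with Psph, 0.051 with Mthfd2 and -0.22 with Psat1. Shmt1 had r = 0.81 with proliferation markers, 0.87 with carcinoma markers and -0.74 with macrophage markers. Phgdh had 0.73 with proliferation markers and 0.57 with carcinoma markers, and Tyms had 0.48 with proliferation markers. These values come from 12 libraries of one experiment, include the differences between groups and carry no test. The ATF4 list itself averaged 0.16 in vehicle, -0.013 with MBQ-167, -0.12 with paclitaxel and -0.027 with the combination. These are log2 units around the mean of all libraries. Values of r within groups were not computed for the lists.

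**Figure D5:**
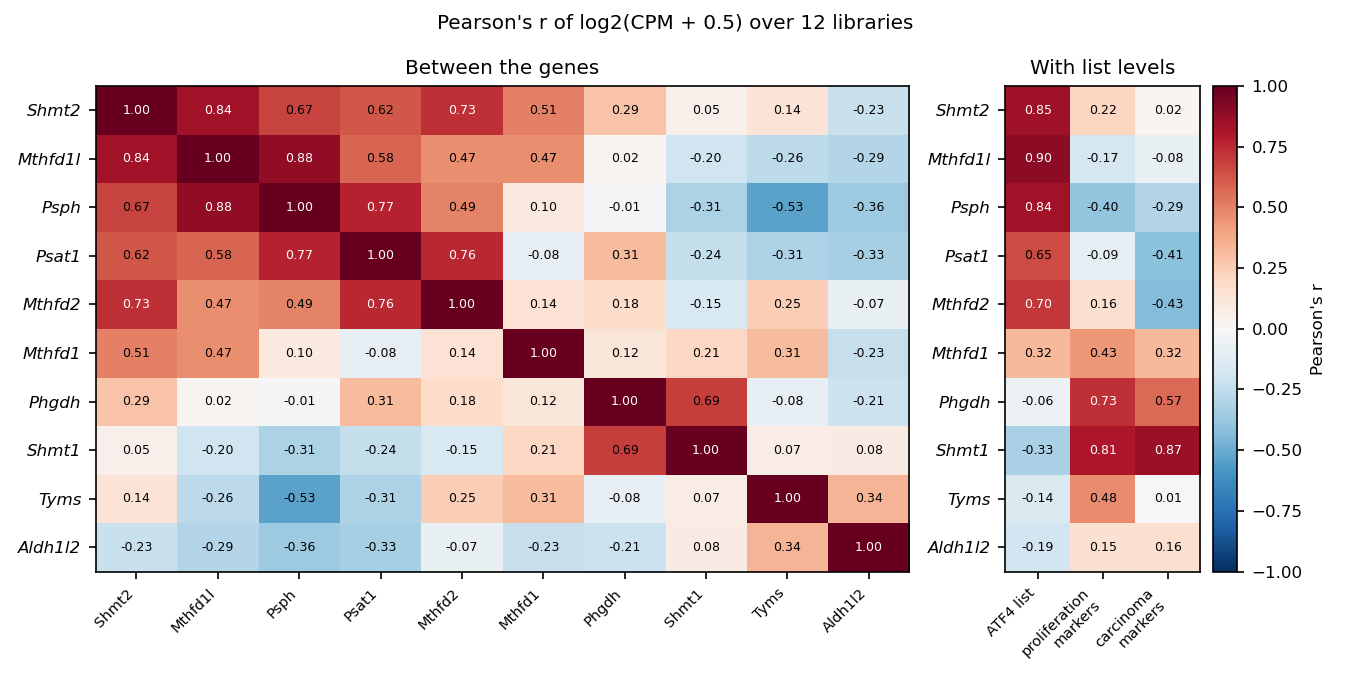
Pearson's r of log2(CPM + 0.5) over 12 libraries between the 10 genes (left) and with the mean level of the ATF4 list, of proliferation markers and of carcinoma markers (right), on a colour scale from -1 to 1. Shmt2, Mthfd1l, Psph, Psat1 and Mthfd2 had r of 0.65 to 0.90 with the ATF4 list and 0.47 to 0.88 with each other, and Phgdh and Shmt1 had 0.57 to 0.87 with proliferation and carcinoma markers.

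In the ATF4 list 3 of 29 genes were called lower with paclitaxel and none higher, with a median of -0.32. Of all tested genes 2.49% were called lower and 3.17% higher. The 3 were Ddit4, an inhibitor of mTOR signalling (-1.02 ± 0.17, adjusted p = 0.00703), Ddit3, the stress factor CHOP (-0.97 ± 0.17, 0.00703), and Sars, the cytosolic seryl-tRNA synthetase (-0.69 ± 0.12, 0.00829). Ddit4 (-0.86) and Sars (-0.56) were also called with the combination, where 0.811% of all genes were called lower. No gene of the list was called with MBQ-167, where 0.0931% of all genes were. A part of ATF4 in these changes was not tested. Atf4 itself had 107, 114 and 119 CPM in vehicle and 91.3, 97.6 and 86.1 CPM in paclitaxel libraries. All paclitaxel libraries were below vehicle, as for 12.1% of tested genes, but the difference of -0.30 ± 0.12 did not pass (adjusted p = 0.132).

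Lists of other genes around the pathway were counted too. Of all tested genes 5.66% were called with paclitaxel, and counts of 0 or 1 in lists this small lie near that share. They therefore say nothing about the lists as such. Of 22 tested genes of folate handling and glycine cleavage, 1 was called higher with paclitaxel, Srr, the serine racemase that makes D-serine (0.45 ± 0.12, adjusted p = 0.0418), and 0 lower. Mthfd2l, the mitochondrial relative of Mthfd2, was at 0.54 ± 0.20 (adjusted p = 0.127), with 15.8, 11.5 and 22.1 CPM in vehicle and 22.5, 22.9 and 26.8 CPM in paclitaxel libraries. Its sign was thus opposite to that of Mthfd2, without either passing. Of 16 tested methionine cycle and transsulfuration genes, Mat2a, which makes the methyl donor S-adenosylmethionine, was called higher with paclitaxel (0.72 ± 0.12, adjusted p = 0.00703) and 0 lower. None of 23 genes of purine and thymidylate synthesis was called in any comparison with vehicle.

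Myc, a known activator of serine and one-carbon genes, differed by 0.034 ± 0.16 with paclitaxel (adjusted p = 0.924). In the list of 13 tested MYC and E2F regulators, Mxd1, which opposes MYC at its sites, was called lower with paclitaxel (-1.14 ± 0.22, adjusted p = 0.0115) and with the combination (-1.21 ± 0.22, 0.0221). Of 16 proliferation markers Top2a was called higher with paclitaxel (0.50 ± 0.12, 0.0244) and 0 lower, and Mki67 differed by 0.19 ± 0.14 (0.464). Among 13 carcinoma markers Krt8 was called lower with paclitaxel (-0.80 ± 0.18, 0.0236). With paclitaxel 5.66% of all tested genes were called, and 1 call in lists of 13 or 16 genes lies near that share.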

How the data were processed

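RNA sequencing of 12 tumour libraries was deposited as raw counts per gene, 1 column per library. Per the submitters' processing notes, the authors used HISAT2, GRCm38, HTSeq and DESeq2; for versions, strandedness, annotation and multiply mapped reads the entry is: not given in the sources used here. Per the labels, the molecule is polyA RNA. The table lists 46078 genes, of which 45143 matched a GENCODE vM21 symbol. Genes were kept by filterByExpr (minimum count 10), scaled by TMM and fitted over all 12 libraries with the quasi-likelihood test of edgeR 4.0.16 (R 4.3.3), which had 8 residual degrees of freedom and a biological coefficient of variation of 0.214. Benjamini-Hochberg adjustment ran over all 18252 tested genes in each of 9 comparisons, with calls at an adjusted p under 0.05 and n = 3 per group. Fold changes are log2 values computed here. The fitting step was tested on simulated data. The 10 genes and the other lists were chosen with earlier results of these data known. Named beyond the 10 are at most 4 called genes per list, Atf4, Myc and Mki67, and per gene the 2 most alike in pattern; Mthfd2l and markers given by level were chosen after their values were seen, and another gene that the rule names is not reported here. Alternatives were DESeq2 1.42.0, RLE factors, other filters, a GC offset (spline with 5 degrees of freedom), protein-coding genes only, a replicate block and leaving out each library. Total-count scalings and Phgdh summed with its copies were added after seeing the data.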

Additional observations from a re-analysis of the deposited data

How the results depend on the processing

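Of 1840 recomputed values of single genes, 0 called values changed sign. In 124 the sign changed with neither value called, 16 lost a call, 8 gained one and 1692 stayed on their side. The 2 paclitaxel calls became 0 under the GC correction, the block with GC correction and both total-count scalings, and ranged from 0 to 3 when 1 library was left out. With DESeq2, and with no filter, Shmt2 was called with the combination (1 against 0). The averaged paclitaxel effect had 1 in place of 0 in both, and 0 to 2 with a library left out; the combination had 0 to 1. The F-test called 2 of the 10 with DESeq2 and 1 with no filter.

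Counts over all genes moved more. The F-test (251) gave 1247 with DESeq2, 1145 with no filter, 49 with GC correction, 62 with block and GC, 826 with total-count scaling, 474 without the ribosomal features, and 72 to 268 with a library left out. MBQ-167 (17) gave 325, 392 with no filter and 5 to 42 with a library left out. Paclitaxel (1033) gave 1772, 1554, 347, 311, 2392 under total-count scaling, and 230 to 1139. The share called higher was 56.0%, but 33.1% with GC correction, 97.2% with total-count scaling and 84.9% without the ribosomal features. The combination (336) gave 958, 849, 58, 65, 1044, 694, and 29 to 416; its share called higher was 56.0%, 17.2%, 95.3% and 85.4% in the same order. Against MBQ-167 it gave 1 and 4, and against paclitaxel 5 and 7, with DESeq2 and no filter. The averaged MBQ-167 effect (0) gave 7, 21, 2 with the block, 2 with block and GC, and 0 to 1. The averaged paclitaxel effect (582) gave 1280, 960, 5, 15, 1757, 874, and 108 to 829. The interaction (11) gave 153, 197, 44 under total-count scaling, and 2 to 16.

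Replicate numbers showed no clear pairing of the libraries: of 18 same-number pairs 5 correlated over 0.1 (range -0.18 to 0.25). The median r was 0.013 for the same number and -0.034 for different numbers, and 5 of 12 libraries correlated best with their own number. With so few libraries, this check cannot settle whether the numbers pair them. With the replicate number as a block, Shmt2 was at -0.61 (adjusted p = 0.0346) and Mthfd1l at -0.49 (0.0352) with paclitaxel. The cause of each change was not tested. With 3 libraries per group, the size of each difference is known only within its printed interval.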

Other observations

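For each of the 10 genes, the tested genes averaging 1 CPM or more whose log2 CPM went most closely with it over the 12 libraries were listed, among 15867 genes; with so many genes and 12 libraries, high values of Pearson's r arise in any such list, and no test was made. Mthfd1l and Psph shared a close companion, Mars, the methionyl-tRNA synthetase (r = 0.94 with each). Asns, the asparagine synthetase and a known ATF4 target, was closest to Mthfd2 (0.86). Psat1 went with Pf4, a platelet and macrophage chemokine (0.95), and with Dpy19l3 (0.92). Psph also went with D10Jhu81e (0.95) and Mthfd1l with Atp5b, a subunit of the mitochondrial ATP synthase (0.93). Shmt2 went with Med16 (0.93) and with the alpha-tubulin gene Tuba1c (0.92).

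Phgdh went with Ncl, the nucleolar protein nucleolin (0.91), and Gm44335 (0.90), and Shmt1 with the nuclear pore gene Nup153 (0.91) and Gm10129 (0.91). Mthfd1 went with Gm29233 (0.89) and Gtf2f2 (0.89), Mthfd2 also with Adora2b (0.85), Aldh1l2 with the collagen gene Col7a1 (0.91) and Prg4 (0.90), and Tyms with Prss57 (0.93) and Farp1 (0.90).

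Summed levels of T and NK cell markers were 7.09 to 21.6 CPM in vehicle, 24.2 to 29.3 with MBQ-167, 22.5 to 44.8 with paclitaxel and 23.7 to 27.2 CPM with the combination, and 1 of 13 tested markers was called higher with paclitaxel and 1 with the combination. Of 10 macrophage markers Cd14 was called lower with paclitaxel (-0.94 ± 0.22, adjusted p = 0.0250). Of the tested markers of B and plasma cells, fibroblasts, endothelium, adipocytes and skeletal muscle, 0 were called in a comparison with vehicle by edgeR. Of all tested genes 0.0931% were called with MBQ-167, 5.66% with paclitaxel and 1.84% with the combination. Beside these shares, counts of 0 or 1 in such short lists say little.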
